A study of Mus musculus with 2 samples.

Results

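Foxp4 peaks were examined at 10 genes of the thermogenic and beige fat programme: the regulator genes Prdm16, Ppargc1a, Irf4 and Zfp516, the effector genes Ucp1, Dio2, Cidea and Elovl3, and the surface marker genes Tmem26 and Tnfrsf9. A peak was taken when the deposited list names 1 of these genes for it, or when its midpoint lay inside the mm10 gene body or within 100 kb of it. By this rule 7 of the 3317 peaks belonged to 6 of the 10 genes. Of all 21887 protein-coding genes, 27.6% had a peak inside or within 100 kb, and the exact 95% interval for the 6 of 10 (26.2 to 87.8%) includes that share. Irf4 had 2 peaks, and Ppargc1a, Zfp516, Dio2, Tmem26 and Tnfrsf9 had 1 each. Prdm16, Ucp1, Cidea and Elovl3 had none, and their closest peaks lay 155 to 368 kb from the gene body.

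The peaks came from 1 ChIP-seq library made with an antibody to Foxp4, beside which 1 input DNA library of the same cells was sequenced. Both came from the stromal vascular fraction (SVF, the cells of fat tissue other than mature adipocytes) of inguinal white fat of C57BL/6 mice. After 3 days in medium with 20% serum, the cells were induced for 48 h in 10% serum with the thyroid hormone T3 at 50 nM, the PPARγ agonist troglitazone at 5 µM, dexamethasone, a glucocorticoid, at 1 µM, isobutylmethylxanthine, a phosphodiesterase inhibitor, at 0.5 mM, and insulin at 5 µg/ml. The input library was not analysed here, read depth is unknown, and a single ChIP library gives neither replicate error nor a test between samples. SVF cells are a mixture, so strong binding in few cells and weak binding in many cannot be told apart.

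Beige adipocytes are fat cells within white depots that can take on heat production. They burn fuel through the uncoupling protein Ucp1, and their programme is set up by transcriptional regulators such as Prdm16 and the coactivator encoded by Ppargc1a, under adrenergic signalling through cAMP and with local thyroid hormone. Foxp4 is a forkhead transcription factor, a family whose DNA-binding domain recognises AT-rich sites related to TGTTTAC.

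None of the 7 peaks lay at a start site of the gene it was taken for, so the promoters are shown first, beside the 1 promoter among the closest peaks that did lie under a peak. The reference table of promoter windows (RefSeq, GRCm38.p6, the assembly of mm10) holds 250 bases before to 50 after a start site, printed here 5′ to 3′ on the gene's strand. It matched 7 of the 10 genes with 8 windows, 2 of them for Tnfrsf9, and no base of these 8 windows lay in a peak. The Tprgl window (chr4:154160635-154160934, minus strand) has 198 of its 300 bases under the peak closest to Prdm16 (chr4:154160737-154161161, score 242). The capitals in it mark GTAAACA, the complement of TGTTTAC, which starts 211 bases before the start site and lies inside the peak. The Prdm16 window (chr4:154636824-154637123, minus strand) holds, of the forkhead motifs, only the shorter core TGTTT, in capitals, 197 bases before its start site. In the windows of Ucp1 (chr8:83290098-83290397, plus strand) and Ppargc1a (chr5:51567676-51567975, minus strand) the capitals mark the short cAMP element TGACG or its complement CGTCA, and in that of Dio2 (chr12:90738989-90739288, minus strand) the full cAMP response element TGACGTCA, 95 bases before the start site.
Tprgl: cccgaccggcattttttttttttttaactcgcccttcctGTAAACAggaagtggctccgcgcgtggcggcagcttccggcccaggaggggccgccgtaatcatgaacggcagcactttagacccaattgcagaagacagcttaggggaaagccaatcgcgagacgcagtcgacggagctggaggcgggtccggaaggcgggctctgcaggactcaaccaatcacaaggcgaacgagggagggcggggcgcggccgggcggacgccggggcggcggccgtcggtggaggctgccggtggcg
Prdm16: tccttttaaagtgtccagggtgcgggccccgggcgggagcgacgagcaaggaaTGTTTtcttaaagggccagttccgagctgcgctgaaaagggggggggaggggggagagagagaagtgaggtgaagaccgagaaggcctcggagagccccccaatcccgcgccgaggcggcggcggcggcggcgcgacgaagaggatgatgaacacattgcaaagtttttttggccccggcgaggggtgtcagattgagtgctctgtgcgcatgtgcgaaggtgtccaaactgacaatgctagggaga
Ucp1: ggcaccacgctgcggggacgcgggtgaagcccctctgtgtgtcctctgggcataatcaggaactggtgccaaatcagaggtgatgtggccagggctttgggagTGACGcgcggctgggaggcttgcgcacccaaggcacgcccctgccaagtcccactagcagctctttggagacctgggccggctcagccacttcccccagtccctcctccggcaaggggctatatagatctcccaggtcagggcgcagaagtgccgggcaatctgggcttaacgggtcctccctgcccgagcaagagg
Ppargc1a: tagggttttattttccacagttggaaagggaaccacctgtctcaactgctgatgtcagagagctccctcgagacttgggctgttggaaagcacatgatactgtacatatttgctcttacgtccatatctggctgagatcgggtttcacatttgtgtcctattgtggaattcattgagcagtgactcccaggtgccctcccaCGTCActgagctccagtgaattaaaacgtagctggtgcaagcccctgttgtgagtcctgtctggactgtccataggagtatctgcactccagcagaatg
Dio2: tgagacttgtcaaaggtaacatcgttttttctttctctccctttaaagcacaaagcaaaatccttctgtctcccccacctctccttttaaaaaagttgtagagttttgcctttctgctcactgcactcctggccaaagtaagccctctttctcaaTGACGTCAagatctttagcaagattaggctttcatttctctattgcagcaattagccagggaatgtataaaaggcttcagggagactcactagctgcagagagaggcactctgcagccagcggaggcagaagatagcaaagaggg

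Searched on both strands, TGTTTAC was in 0 of the 8 windows of the thermogenic and beige genes, against 3.65% of all 32851 promoter windows. With 8 windows, 0 matches allow a share of up to 36.9% (exact Clopper-Pearson 95% interval), so a difference from all windows was not detectable. Among the 170 windows with at least 150 bases in a Foxp4 peak, 36 held TGTTTAC (21.2%, exact 95% interval 15.3 to 28.1), and among the 32606 windows with no base in a peak 3.55% did (3.35 to 3.75). Genes with several start sites contribute several, partly overlapping windows to these counts. The core TGTTT, which also matches inside TGTTTAC, was in 3 of the 8 windows, those of Prdm16 and Tnfrsf9, against 50.5% of all windows. The cAMP response element TGACGTCA was in the Dio2 window alone among the 8, against 1.79% of all. The short element TGACG, which the full element contains, was in those of Ppargc1a, Ucp1 and Dio2, against 20.8%. The C/EBP motif TTGCNNAA was in none of the 8 (5.8% of all windows). The PPAR element AGGTCA was in 2, 1 of the Tnfrsf9 windows and that of Ucp1 (16.3% of all). The NFI element TTGGC was in 5, both of Tnfrsf9 and those of Prdm16, Ucp1 and Dio2 (46.7% of all). A higher share in windows with at least 150 bases in a peak than in windows with no base in one was not particular to TGTTTAC. It was 67.1% against 50.5% for TGTTT, 5.88% against 1.76% for TGACGTCA and 34.1% against 20.7% for TGACG. For TTGCNNAA it was 11.2% against 5.78%, and for TTGGC 57.6% against 46.7%. AGGTCA went the other way, with 10.6% against 16.3%. The sequences under the 7 peaks themselves were not analysed here.

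Prdm16 encodes a zinc finger coregulator that drives brown and beige fat identity. It is a long gene (321 kb, chr4:154316122-154637360, minus strand) and no peak lay in it. The closest peak was the promoter peak of Tprgl described above, 155 kb beyond its 3′ end, with 9 protein-coding gene bodies nearer to that peak than Prdm16. Its score of 242 placed it at rank 201 of 3317, so that 6.09% of peaks scored as high or higher. Score is the authors' whole-number value per peak, of unstated scale, and it serves here only to rank peaks within the list. On the 5′ side the closest peak lay 291 kb from the gene, at the Tnfrsf14 promoter. Its score was 16, near the lowest of all peaks, 13.

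Ppargc1a encodes PGC-1α, the coactivator of mitochondrial biogenesis and of the thermogenic response. It was the 1 gene of the 10 with a peak inside its span (chr5:51868202-51868495, 294 bp, score 94, rank 958). The list calls this peak intergenic and names it for the microRNA gene Mir6417, whose start lies 268 kb away. The reference table delimits Ppargc1a as 662 kb (chr5:51454249-52115853), whereas its start site in the promoter table is at position 51567725, which leaves 548 kb of the span upstream of that site. The peak lay 301 kb upstream of this start site, 33 kb farther from it than from the start of Mir6417. With the span cut at that start site, an alternative chosen after the values were seen, the peak no longer lies inside Ppargc1a or within 100 kb of it. The next peak along the chromosome lay 1856 kb from the gene, so a single site stood in a wide interval without others.

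Irf4 encodes an interferon regulatory factor that in mouse fat acts with PGC-1α on thermogenic genes. Both of its peaks lay upstream. The one named for Irf4 was at -27.4 kb (chr13:30721670-30721983, score 52, rank 2042) on a (TTG)n simple repeat. The other was at -79.7 kb (chr13:30669328-30669729, score 55, rank 1937), on an L1MB8 element in intron 2 of Dusp22, a phosphatase gene for which the list names it. Both peaks lay closer to the body of Dusp22 than to that of Irf4, and both scored below the median of all peaks, which was 65.

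Zfp516 encodes a zinc finger activator of the Ucp1 promoter in mouse. Its peak (chr18:82856082-82856459) lay 53.4 kb from the low-coordinate end of the gene, 373 bp from the start of the long non-coding RNA gene 4930445N18Rik for which the list names it. No protein-coding gene was nearer. Its score of 23 was the lowest of the 7, and 94.7% of all peaks scored as high or higher. The next peak lay 387 kb away, in an intron of Mbp (score 121).

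**Figure D1:**
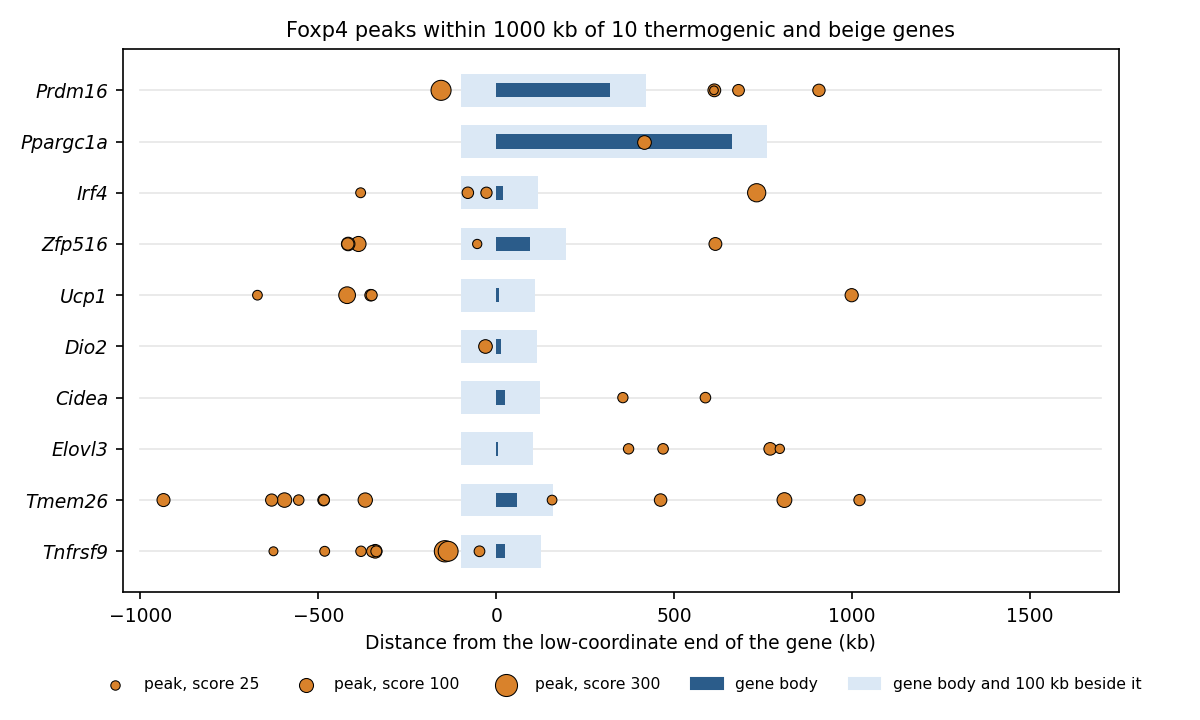
Positions of Foxp4 peaks (circles, area growing with the score) along the chromosome within 1000 kb of each gene, in kb from the gene's low-coordinate end; dark bars are gene bodies and pale bars add 100 kb on each side. The pale bars of Prdm16, Ucp1, Cidea and Elovl3 hold no peak, Irf4 has 2, and Ppargc1a and Dio2 have no second peak within 1000 kb.

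Among the effectors, Dio2 was the gene with a site. It encodes the deiodinase that turns thyroxine into active T3 inside the cell. The peak (chr12:90694137-90694709, score 93, rank 982) was named for Dio2 and lay 44.6 kb downstream of the start site, 30.1 kb beyond the 3′ end, with no other protein-coding gene nearer. At 573 bp it was the widest of the 7, and 86.4% of all peaks were as wide or narrower. The next peak lay 1061 kb from the gene, near Ston2, so the sites at Dio2 and Ppargc1a, with the highest scores of the 7, both stood apart from other peaks. Such spacing was not unusual in this list. Over all protein-coding genes the lower quartile was 1 peak within 1000 kb, and 18.0% had none.

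The other effector genes had no site by the rule. Ucp1, the uncoupling protein gene itself (8.11 kb, chr8:83290348-83298456), had its closest peak 350 kb upstream, in intron 1 of Rnf150 (score 49), with 3 protein-coding genes nearer to that peak, among them Tbc1d9 and Zfp330. Cidea, whose protein sits on lipid droplets and is abundant in brown fat, had its closest peak 332 kb away in intron 2 of Ptpn2 (score 37), with 10 protein-coding genes nearer. Elovl3, a fatty acid elongase gene induced by cold in brown fat, had its closest peak 368 kb away in intron 1 of Trim8 (score 38), with 17 nearer. These distances are not far for this list: 56.4% of protein-coding genes had a peak as close as that of Ucp1 or closer, 54.8% as close as that of Cidea and 57.8% as close as that of Elovl3.

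Of the surface markers of beige cells, Tmem26, a membrane protein gene, had a peak named for it (chr10:68880502-68880916, score 29, rank 2887) on an L1M5 element. It lay 157 kb downstream of the start site and 98.1 kb beyond the gene, the site nearest to the 100 kb limit on the inner side. Tnfrsf9, which encodes the receptor CD137, had a peak 47.0 kb upstream (chr4:150872993-150873309, score 43, rank 2382) on a (CAAA)n repeat. The list names this peak for Errfi1, an inhibitor of the EGF receptor, and both Errfi1 and Park7 were nearer to it than Tnfrsf9. Just outside the limit, a stronger peak named for Errfi1 lay 135 kb upstream of Tnfrsf9 (score 237, rank 212), and another peak at 144 kb upstream scored 277.

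The 7 peaks had a median score of 52 (range 23 to 94) and the whole list a median of 65 (quartiles 41 to 104). Of the 7, 2 reached the list's median and 0 its upper quartile or its 100 highest. Their median width was 378 bp (294 to 573), and that of all peaks 393 bp. The list annotates 5 of the 7 as intergenic and 2 as intronic, against 50.5% and 38.3% of all peaks, and 0 as promoters, against 8.38%. Repeats were annotated at 4 of the 7, against 23.3% of all peaks. These were 2 L1 elements, against 3.71% of all peaks, and 2 repeats of 2 to 5 T and 1 G on either strand, (TTG)n and (CAAA)n, against 6.39%. The 3 peaks without a repeat were those at Ppargc1a, Zfp516 and Dio2. The handling of reads that align to several places, and its part in the 4 repeat sites, was not tested.

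**Figure D2:**
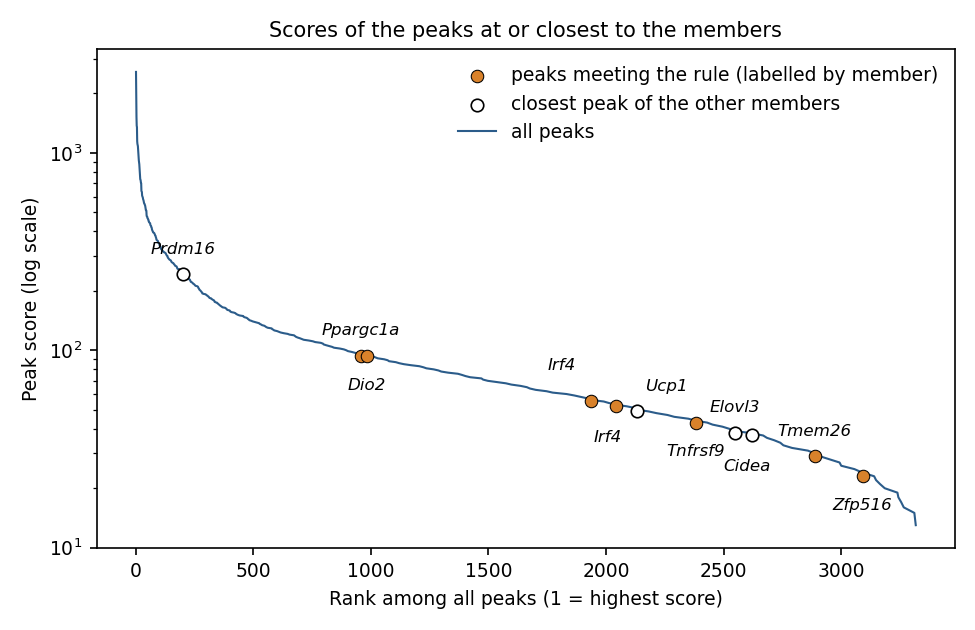
Score of each peak (log scale) against its rank among all 3317 peaks (line), with the 7 peaks taken by the rule as filled circles and the closest peaks of Prdm16, Ucp1, Cidea and Elovl3 as open circles. The 7 peaks lie between scores 23 and 94, and the closest peak of Prdm16, at the Tprgl promoter, stands above them at 242.

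The 7 peaks were named for the gene itself in 3 cases, at Dio2, Irf4 and Tmem26, and for another gene in 4. In 4 cases no other protein-coding gene body was nearer (Ppargc1a, Zfp516, Dio2 and Tmem26), and in 3 another one was (Tnfrsf9 and both peaks of Irf4).

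A peak was named for 3 of the 10 genes, against 9.11% of all 21887 protein-coding genes (exact 95% interval for the 3 of 10, 6.67 to 65.2%). Inside the gene lay a peak for 1 of 10, against 5.36%. Within 100 kb or inside it was 6 of 10, against 27.6% (interval 26.2 to 87.8%). Within 3 kb of a start site it was 0 of the 7 genes with a start site in the promoter table, against 2.17% (upper bound 41.0%). Each of these intervals includes the background share. They cover counting over these few genes only, and the 10 genes were selected with earlier results of the same peaks known, so a share above the background is not evidence that such genes are preferred. Longer genes have wider windows. A peak lay inside or within 100 kb for 18.1% of protein-coding genes in the lowest quartile of length, 27.7% in the next, 29.1% above it and 35.5% in the highest. Of the 10 genes, 1, 2, 3 and 4 fell into these quartiles in that order, and the mean of the background share over their own quartiles was 30.3%.

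The counts over the 10 genes moved with the window, the score limit and the gene model. With 20, 50 and 200 kb around the gene body, 1, 4 and 7 of the 10 genes had a peak, against 11.1%, 18.0% and 41.7% of protein-coding genes. With peaks of score 30 or more, a peak was named for 2 of the 10, Dio2 and Irf4, against 8.07%, and lay inside or within 100 kb of 4, against 24.6%. With peaks at or above the median score, these counts were 1, Dio2, against 5.14%, and 2, Dio2 and Ppargc1a, against 16.5%. With gene bodies cut at the start sites of the promoter table, 0 of the 10 had a peak inside, against 5.09%, and 5 had one inside or within 100 kb, against 27.5%. Within 100 kb of a start site lay a peak for 3 of the 7 genes in that table, Irf4, Dio2 and Tnfrsf9, against 23.3%. Dio2 was among the genes counted each time, apart from the 20 kb window and the counts inside genes.

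Over the 10 genes the median distance to the closest peak was 75.7 kb (quartiles 34.3 to 288) and over all protein-coding genes 277 kb (quartiles 86.8 to 723). With gene bodies cut at the start sites of the promoter table, which moves the distance of Ppargc1a, the medians were 127 kb over the 10 genes and 279 kb over all protein-coding genes. The 10 genes were also longer, with a median of 25.1 kb against 17.2 kb, and length was not matched here. They were selected with earlier results known, so the shorter distances are not evidence of a preference. The 10 genes had 1 to 11 peaks within 1000 kb (median 4.5), and all protein-coding genes a median of 3 (quartiles 1 to 5). Tmem26 had the most, 11, followed by Tnfrsf9 with 9, while Ppargc1a and Dio2 had 1 each.

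**Figure D3:**
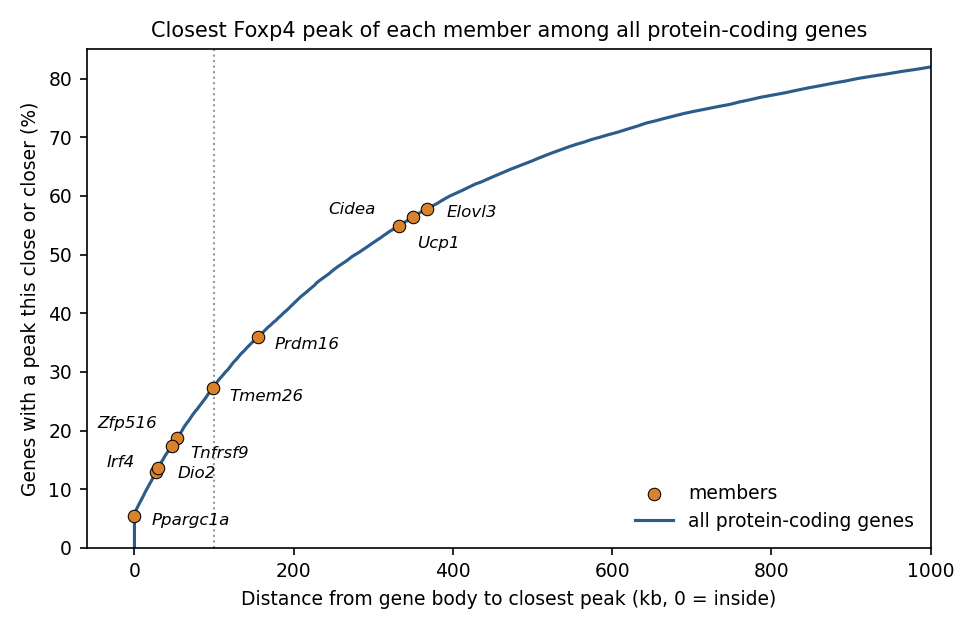
Distance from the gene body to the closest Foxp4 peak (kb, 0 inside the gene) against the share of genes with a peak that close or closer, for the 10 genes (circles) and all protein-coding genes (line); the dotted line marks 100 kb. Prdm16 lies at 155 kb and Cidea, Ucp1 and Elovl3 lie together at 332 to 368 kb, these 3 beyond the median of 277 kb over all genes.

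A wider list of 75 other genes linked to the thermogenic programme was taken whole, in groups by role. It includes repressors such as Twist1 and markers of fat depots, so a listed gene need not promote heat production. A peak was named for 10 of the 75, against 9.11% of protein-coding genes, lay inside 5, against 5.36%, and lay inside or within 100 kb of 20 (26.7%, exact 95% interval 17.1 to 38.1), against 27.6%. These shares stood near the background. Within 3 kb of a start site lay a peak for 1 of the 52 genes with a start site in the promoter table (1.92%), against 2.17%. This gene was Acadm, a fatty acid oxidation enzyme gene, with a score of 48 in intron 1, 1.14 kb from the start.

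Activators and co-regulators had a peak inside or within 100 kb in 9 of 21 cases (42.9%, interval 21.8 to 66.0). The highest scores were those near Cebpb, an early adipogenic factor gene (125, 23.4 kb away), the tumour suppressor gene Rb1 (108, 86.0 kb), Twist1, a repressor of PGC-1α targets (103, 6.6 kb), and the T-box gene Tbx1 (95, 96.4 kb). Of these, Twist1 was the 1 gene for which the list names the peak. Peaks were also named for Mecom, which encodes a PR domain protein related to Prdm16 (86, inside the gene), for Ebf2, a brown and beige fat factor gene (52, at -30.0 kb), for Tle3, a corepressor gene (34, at -34.8 kb), and for Pparg, the central adipogenic receptor gene (28, at -47.7 kb).

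Effectors had one in 4 of 22 cases (18.2%, 5.19 to 40.3): near Otop1, a proton channel gene (258, 3.44 kb beyond the gene, named for Drd5), near the respiratory chain gene Cox8b (77, 75.3 kb), at Acadm (48), and near the carnitine palmitoyltransferase gene Cpt1b (34, 54.8 kb). Signals and receptors had one in 3 of 20 (15%, 3.21 to 37.9): near the growth factor receptor gene Fgfr1 (76, 53.1 kb), the angiogenic factor gene Vegfa (51, 38.5 kb) and the β3-adrenergic receptor gene Adrb3 (27, 97.0 kb, at the Brf2 promoter). A peak was also named for the thyroid hormone receptor gene Thrb, at -249 kb (83). Surface and depot markers had one in 4 of 12 (33.3%, 9.92 to 65.1). Of these, Hoxc8 and Hoxc9 shared a promoter peak of Hoxc4 (228), Plac8 had a peak named for it at -33.9 kb (62), and the amino acid transporter gene Slc7a10 had one 53.1 kb away (19). The interval treats Hoxc8 and Hoxc9 as independent genes, although they shared a peak. At 100 kb the intervals of all 4 groups include the background of 27.6%. Inside the gene lay a peak for 4 of 21 activators and co-regulators (19.0%, 5.45 to 41.9), against 5.36% of protein-coding genes. That interval starts just above the background. Gene length was not matched here and the list was chosen with earlier results known, so this is not evidence of a preference.

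**Figure D4:**
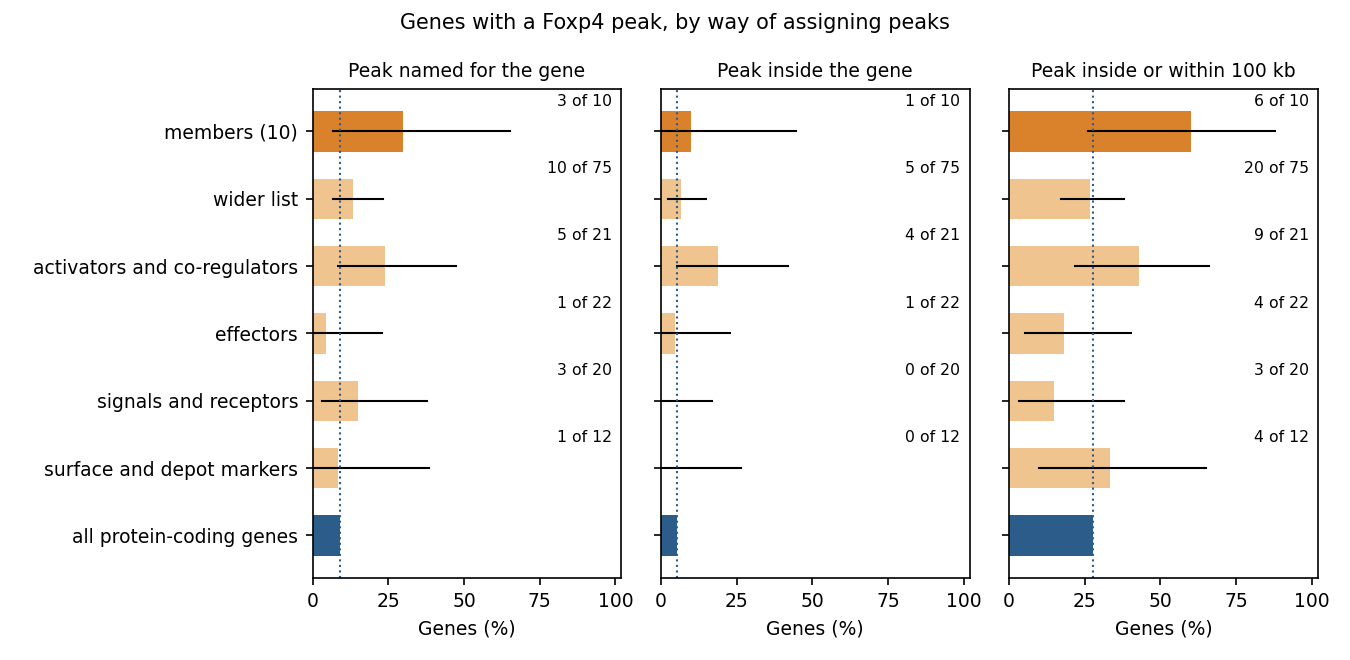
Share of genes (%) with a Foxp4 peak named for them (left), inside them (middle), or inside or within 100 kb (right), for the 10 genes, the wider list of 75 and its 4 role groups, and all protein-coding genes (bottom bar and dotted line); black lines are exact 95% binomial intervals over genes. At 100 kb the 10 genes reach 60.0%, the wider list 26.7% and all protein-coding genes 27.6%.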

How the data were processed

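Per the file headers, the peaks were deposited as a narrowPeak list annotated against mm10 with HOMER's annotatePeaks.pl. The submitters' processing notes list deepTools 3.3.0, MACS2, SAMtools, Picard and Bowtie2 without roles or settings. The deposited score per peak is the authors' value, used as given. Gene names of peaks, annotation classes and distances to the start of the gene named for a peak are those of the authors' deposited list. Start and end are its mm10 positions.

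All 3317 peaks were kept, and 1 line without a peak was left out. Peaks were placed by their midpoints. Gene bodies came from a RefSeq gene table (GRCm38.p6) and start sites from a RefSeq promoter table, and all other distances were computed from these, using Python 3.11.15, pandas 2.3.3 and SciPy 1.17.1. The distance code was tested on simulated peaks. Of 2462 named gene numbers, 2459 were found in the table, and all 76 symbols of the wider list matched, as 75 genes. The 10 genes, the wider list, the motifs and the alternatives were chosen with earlier results of these data known. Named genes were all 10, the genes named for their peaks or closest peaks, and from the wider list those with a named peak and up to 4 per role group by highest score within 100 kb. With no replicates there was no test, so counts stand beside the share of all 21887 protein-coding genes, with exact 95% intervals that cover counting only.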

Additional observations from a re-analysis of the deposited data

How the results depend on the processing

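Of the 33 counts recomputed under alternatives, 22 stayed within 1.5 times the reported value. With peaks at or above the median score, 1 of the 10 genes had a named peak, 2 had a peak inside or within 100 kb (Ppargc1a and Dio2, with 2 peaks), and 11 of the 75 genes of the wider list did, against 16.5% of protein-coding genes. With a window of 20 kb, 1 of the 10 genes had a peak by distance alone, and 9 of the wider list did, against 11.1%. At 20 kb 4 peaks met the rule, which also takes peaks named for any of the 10 genes at any distance. With 200 kb, 32 of the wider list had a peak, against 41.7%. Within 100 kb of a start site the counts were 3 of the 7 genes and 12 of the 52 genes of the wider list with a start site in the promoter table, against 23.3%. With gene spans cut at that table's start sites, 0 of the 10 genes had a peak inside and 5 had one inside or within 100 kb. Of 27 recomputed distances to the closest peak, 17 stayed within 1.5 times. With peaks at or above the median score the distance was 715 kb for Irf4, 387 kb for Zfp516, 1060 kb for Cidea, 766 kb for Elovl3, 368 kb for Tmem26 and 135 kb for Tnfrsf9. From the start site it was 292 kb for Prdm16, 157 kb for Tmem26 and 301 kb for Ppargc1a, which also lay 301 kb away with its span cut. The planned motif searches in peak sequences were not run. No paired analysis was possible because there was 1 ChIP library and the result comes from no test. For the same reason no replicate could be left out. Read depth is unknown, so weak sites below the authors' calls are not seen.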
